A study of Mus musculus with 22 samples.

Results

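The engulfment, actin and phagosome maturation machinery of retinal microglia was followed through 41 genes, taken by name from the 35596 genes measured. Of these, 27 act on actin and on the Rac family of GTPases, and 14 are Rab GTPases of the phagosome or genes of LC3-associated phagocytosis. All 41 members passed the filter on low counts. The study sorted microglia from the retinas of mice aged 12 weeks, 24 hours after apoptotic neurons had been placed in the vitreous, and read their RNA in bulk. The 4 groups were Apoe -/- phagocytic cells (n = 6 libraries), Apoe -/- non-phagocytic cells (n = 6), wild-type phagocytic cells (n = 5) and wild-type non-phagocytic cells (n = 5). The Apoe -/- mice are labelled as strain Apoe KO and carry no functional Apoe in any cell, and the wild-type mice are C57BL/6. Every group shared the injection and the gate, which kept CD11b+ and Fcrls+ cells negative for Ly6c, and phagocytic cells were those with an Alexa488 signal. Non-phagocytic cells therefore came from injected eyes too, and the comparison of sorts is one of cells that did and did not carry label. Each library is a pool of 5 to 6 retinas of 1 genotype and sex, and 100 to 500 phagocytic cells were collected a pool, so p-values measure the spread between pools.

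When a macrophage meets a dying cell, receptors on its surface signal through adaptors such as Crk and through exchange factors of the ELMO-DOCK and Vav families, which load Rac with GTP. Rac and Cdc42 then act through WAVE and WASP proteins on the Arp2/3 complex, which starts branched actin filaments and pushes the membrane around the prey. Once closed, the phagosome exchanges Rab GTPases on its membrane and fuses with lysosomes, and in LC3-associated phagocytosis part of the autophagy machinery attaches LC3 to the single membrane of the phagosome. In microglia this machinery clears apoptotic neurons.

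The libraries held between 1131239 and 3643674 estimated reads. Satellite-like predicted genes took 51.7% and 47.6% of the reads in Apoe -/- non-phagocytic pools 2 and 5, and 9.13% to 36.9% in the other 20 libraries. Apoe lay between 8.91 and 34.9 CPM (counts per unit of TMM-scaled library size) in Apoe -/- libraries of phagocytic cells and between 7.02 and 17.6 CPM in those of non-phagocytic cells. In wild-type libraries it lay between 1317 and 5145 CPM in phagocytic and between 869 and 1604 CPM in non-phagocytic cells. The 10 microglia markers summed to 5117 to 20598 CPM over all 22 libraries, with none at 0 in any library. Of the 10, 8 were lower in phagocytic cells and 2 higher by the averaged fold change, with a median log2 value of -0.29. None was called, and 2 had an unadjusted p below 0.05 in edgeR, both lower. Monocyte markers summed to 992 CPM in the phagocytic and 1180 CPM in the non-phagocytic library of wild-type pool 4, against 77.3 to 507 CPM in the other 20 libraries. The 8 border macrophage markers summed to 409 to 1068 CPM in Apoe -/- phagocytic libraries and 193 to 325 CPM in non-phagocytic libraries of that genotype, and to 494 to 970 CPM in wild-type phagocytic and 259 to 374 CPM in wild-type non-phagocytic libraries. Stab1 held much of these sums, with 889 of 1068 CPM in Apoe -/- phagocytic library 6, and its sorts overlapped in both genotypes. Its averaged log2 fold change of 0.95 was the lowest of the 7 tested. None of these 8 was at 0 in every library, though Lyve1 and Cbr2 were at 0 in several, and edgeR called 6 of the 7 tested as higher in phagocytic cells over both genotypes, with a median log2 fold change of 2.02, while 1.8% of all genes tested were called as higher and the median of all genes was -0.02. The 6 dendritic cell markers, none at 0 in every library, summed to 19.1 to 104 CPM in Apoe -/- phagocytic libraries and 59.4 to 143 CPM in non-phagocytic libraries of that genotype, and to 11.5 to 57.4 CPM in wild-type phagocytic and 22.1 to 332 CPM in wild-type non-phagocytic libraries. All 5 of them that were tested had negative averaged fold changes, with a median of -1.52 and 4 at an unadjusted p below 0.05, and edgeR called 0 and DESeq2 1. Of the 7 monocyte markers, 4 had positive and 3 negative averaged fold changes, with a median of 0.42. edgeR called 1 as higher, and 3 had an unadjusted p below 0.05 in edgeR, all higher in phagocytic cells. Border macrophage markers thus moved with the sort in both genotypes without overlap of the sums. Dendritic cell markers lay lower in phagocytic cells with overlap, and monocyte markers went both ways. The part of any of these marker lists in the results on the sort was not tested. In bulk samples, fewer cells of a type and less RNA per cell cannot be told apart.

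Of the 41 members, the phagosome GTPase Rab20 had the largest sort effect averaged over the genotypes. Averaged over the genotypes, Rab20 and Rab32 rose in phagocytic cells, by 1.81-fold and 1.54-fold. They were the 2 members of 41 called by edgeR (quasi-likelihood, with Benjamini-Hochberg adjusted p below 0.05), while 2.36% of the 12415 genes tested were called in the same comparison and 1.8% were called as higher. The fitted log2 fold change was above 0 in 33 of 41 members, with a median of 0.25, against 47.7% of all genes tested and a median of -0.02. Within 1 genotype no member was called by edgeR with libraries treated as unpaired. Few genes of any kind were called there (0.467% in Apoe -/- and 0.209% in wild-type cells). At an unadjusted p below 0.05 there were 7 members in Apoe -/- cells, where 9.93% of all genes passed, and 8 in wild-type cells, where 7.74% did. DESeq2 called Rab20 among the members in Apoe -/- cells, where it called 1.35% of the genes it tested, and none in wild-type cells, where it called 0.83%. For the averaged effect 14 members passed the unadjusted threshold, against 14.5% of all genes, and DESeq2 called 5 (Cfl1, Pfn1, Rab7, Rab20 and Rab32), against 4.13%. All these fits treated libraries as unpaired. With pool number as a block, edgeR called Rab20 in Apoe -/- cells, among 255 of the 12415 genes. For the averaged effect the block fit called Nckap1l, Cfl1, Pfn1, Rab7, Rab20 and Rab32, among 644 genes.

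**Figure D1:**
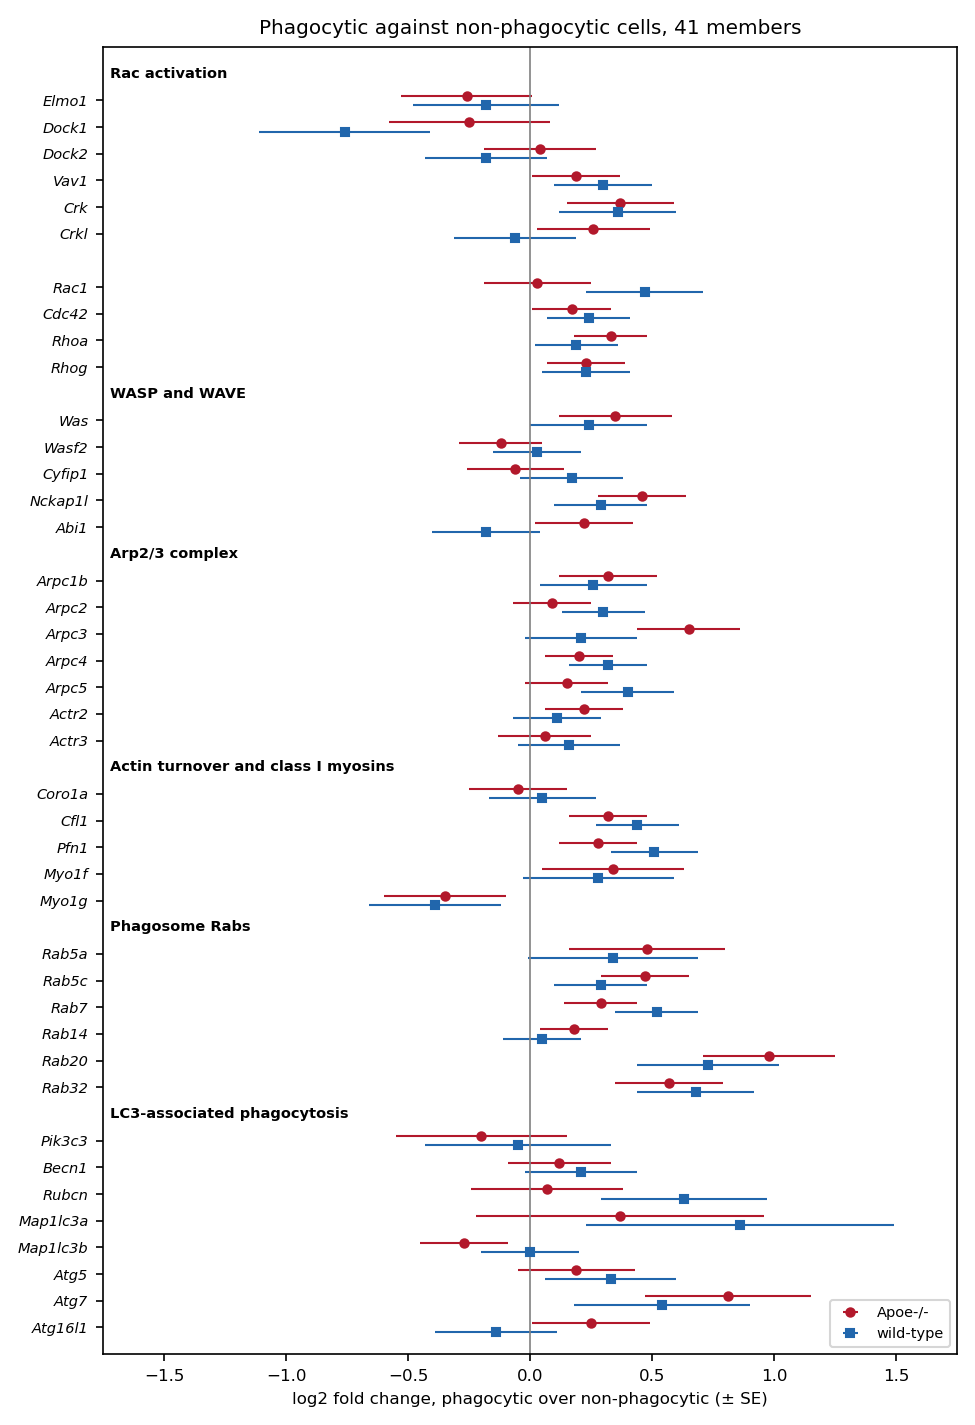
Log2 fold change of each of the 41 members, phagocytic over non-phagocytic cells (x axis, point ± SE), by role (y axis), in Apoe -/- cells (circles) and wild-type cells (squares). Rab20 has the highest value in Apoe -/- cells at 0.98, and all Arp2/3 subunits and all phagosome Rabs lie to the right of 0 in both genotypes.

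The levels of the members spanned a wide range. On the TPM scale, which corrects for transcript length, falls where satellite-like reads take more of a library, and serves here to order genes, cofilin (Cfl1) and profilin (Pfn1) stood first, with means of 1049 and 1047 TPM over the 22 libraries. The Arp2/3 subunit Arpc1b followed at 704 TPM and the actin-binding coronin Coro1a at 505 TPM. At the low end were the class III phosphoinositide kinase Pik3c3 at 5.01 TPM, the exchange factor Dock1 at 5.55 TPM and the early endosome GTPase Rab5a at 6.53 TPM. Summed over their genes, the actin and Rac arm held 5753 ± 1754 TPM and the Rab and LC3 arm 553 ± 173 TPM (SD, n = 22 libraries). Among the actin lists, turnover proteins and class I myosins made up 2692 ± 840 TPM and Arp2/3 1745 ± 558 TPM, while the Rac-activating genes summed to 274 ± 99.3 TPM. The steadiest member between pools of a group was Arpc4, with a mean coefficient of variation of 10.7% in CPM over the 4 groups, followed by Rab14 at 11.8%. Map1lc3a, with 0 to 22.6 TPM, varied most at 58%. Reads that match a gene and a near-identical or overlapping copy equally well were shared out by estimate, so the levels of genes with such copies are uncertain.

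The phagosome Rabs are small GTPases that mark stages of the vesicle. Rab5a and Rab5c act on early endosomes and phagosomes, Rab7 on late ones and on their fusion with lysosomes, and Rab14 on trafficking between Golgi and endosomes. Rab20 is known on maturing macrophage phagosomes, and Rab32 from lysosome-related organelles and the defence against intracellular bacteria. All 6 had positive fold changes in both genotypes, with a median of 0.47 in Apoe -/- and 0.43 in wild-type cells on the log2 scale.

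Rab20 (ENSMUSG00000031504.6, chromosome 8, 11453518 to 11478710, minus strand, GRCm38) lay between 56.1 and 139 CPM with a median of 105 in Apoe -/- phagocytic libraries, against 32.9 to 81.1 CPM with a median of 47.9 in Apoe -/- non-phagocytic libraries. Wild-type phagocytic libraries held it at 93.7, 116, 78, 118 and 66.2 CPM, against 28.9, 61.7, 43.6, 94.3 and 55.5 CPM in wild-type non-phagocytic libraries. The phagocytic libraries tended to the high side, yet the sorts overlapped in each genotype, with the highest wild-type non-phagocytic value coming from pool 4, where monocyte markers were also highest. The log2 fold change was 0.98 ± 0.27 (SE) in Apoe -/- cells (adjusted p = 0.129) and 0.73 ± 0.29 in wild-type cells (adjusted p = 0.522, edgeR). Averaged over the genotypes it was 0.85 ± 0.20, with an adjusted p of 0.0183 in the same edgeR test. The genotypes differed in this effect by 0.25 ± 0.40, which edgeR did not call (adjusted p = 1). Without wild-type pool 4 in both sorts the averaged value was 0.93 (adjusted p = 0.0105, edgeR), and without Apoe -/- non-phagocytic pools 2 and 5 it was 0.89 (adjusted p = 0.0194, edgeR).

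Rab32 (ENSMUSG00000019832.5, chromosome 10, 10545002 to 10558265, minus strand, GRCm38) lay between 101 and 152 CPM with a median of 128 in Apoe -/- phagocytic libraries, against 49.6 to 121 CPM with a median of 86 in Apoe -/- non-phagocytic libraries. Its wild-type phagocytic values were 125, 161, 141, 280 and 178 CPM, against 74.7, 90.9, 115, 146 and 123 CPM in wild-type non-phagocytic libraries. Pool 4 held the highest value of each wild-type sort, and the sorts overlapped in each genotype. The log2 fold change was 0.57 ± 0.22 in Apoe -/- and 0.68 ± 0.24 in wild-type cells, and neither was called by edgeR (adjusted p = 0.357 and 0.403). Averaged over the genotypes it was 0.63 ± 0.16 with an adjusted p of 0.0383 in edgeR's test. This call was lost without any 1 of 14 of the 22 libraries (Apoe -/- non-phagocytic 2, 4 and 5, Apoe -/- phagocytic 3, 4, 5 and 6, wild-type non-phagocytic 1, 2, 3 and 5, wild-type phagocytic 2, 4 and 5), with edgeR adjusted p between 0.0517 and 0.0911, and the fold change stayed between 0.51 and 0.69. Without wild-type pool 4 in both sorts it was 0.57 (adjusted p = 0.0538, edgeR), and without Apoe -/- non-phagocytic pools 2 and 5 it was 0.55 (adjusted p = 0.112, edgeR).

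The promoters of these genes are given because they are the 2 called members. Each is a RefSeq window on build GRCm38.p6, 250 bases before to 50 after the RefSeq start, on the minus strand, printed 5′ to 3′ along the gene. Capitals mark the match to a searched motif. In Rab20 (chr8:11478591-11478890) this is the E-box CACGTG, 46 bases before the start, and in Rab32 (chr10:10558158-10558457) the letters GAGGAAGT, a sequence of the type bound by the myeloid ETS factor PU.1, 43 bases before the start.
Rab20: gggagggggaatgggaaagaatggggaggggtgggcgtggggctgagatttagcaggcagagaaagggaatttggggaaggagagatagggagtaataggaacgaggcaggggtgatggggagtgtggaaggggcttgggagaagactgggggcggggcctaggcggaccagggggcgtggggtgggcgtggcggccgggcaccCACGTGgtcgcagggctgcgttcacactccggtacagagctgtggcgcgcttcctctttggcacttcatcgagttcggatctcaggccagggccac
Rab32: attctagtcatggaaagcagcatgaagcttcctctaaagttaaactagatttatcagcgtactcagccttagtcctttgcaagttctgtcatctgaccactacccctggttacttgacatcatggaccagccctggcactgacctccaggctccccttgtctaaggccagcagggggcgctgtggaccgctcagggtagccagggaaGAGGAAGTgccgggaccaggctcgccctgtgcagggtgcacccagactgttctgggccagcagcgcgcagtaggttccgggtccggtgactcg
Of the 41 members, 34 had a window in the table, in 40 windows. CACGTG, which reads the same on both strands, stood in 6 of these members (Arpc5, Atg5, Atg7, Rab20, Rab5a and Rubcn), and in 7.15% of all 32851 windows. GAGGAAGT, or ACTTCCTC on the other strand, stood in 5 (Arpc1b, Elmo1, Rab32, Rhog and Vav1), and in 3.2% of all windows. The M-box core TCATGTG, or CACATGA on the other strand, stood in 1 (Dock1) against 3.77% of all windows. The AP-1 letters TGAGTCA, or TGACTCA on the other strand, stood in none, against 5.2% of all windows. These matches describe letters in the windows and show no binding.

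Rab7 (ENSMUSG00000079477.9), the GTPase of late phagosomes, came just outside the threshold. It lay between 222 and 252 CPM with a median of 230 in Apoe -/- phagocytic libraries, against 161 to 243 CPM with a median of 178 in Apoe -/- non-phagocytic libraries. The wild-type phagocytic libraries had 261, 316, 235, 319 and 239 CPM, against 144, 204, 213, 201 and 194 CPM in wild-type non-phagocytic libraries. The wild-type sorts did not overlap, whereas the Apoe -/- sorts did. The averaged log2 fold change was 0.41 ± 0.11 with an edgeR adjusted p of 0.0501, and it passed without any 1 of 3 libraries (0.0457 without Apoe -/- non-phagocytic 1, 0.0277 without Apoe -/- non-phagocytic 3, 0.049 without wild-type phagocytic 3, all edgeR). Of the other Rabs, Rab5c had 67.5 ± 12.1 CPM in Apoe -/- phagocytic, 48.5 ± 8.8 in Apoe -/- non-phagocytic, 67.1 ± 4.5 in wild-type phagocytic and 54.9 ± 11.7 in wild-type non-phagocytic libraries (SD). Its averaged log2 fold change of 0.38 ± 0.13 was not called by edgeR (adjusted p = 0.137). Rab5a and Rab14 had averaged values of 0.41 ± 0.24 and 0.12 ± 0.11, also uncalled.

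**Figure D2:**
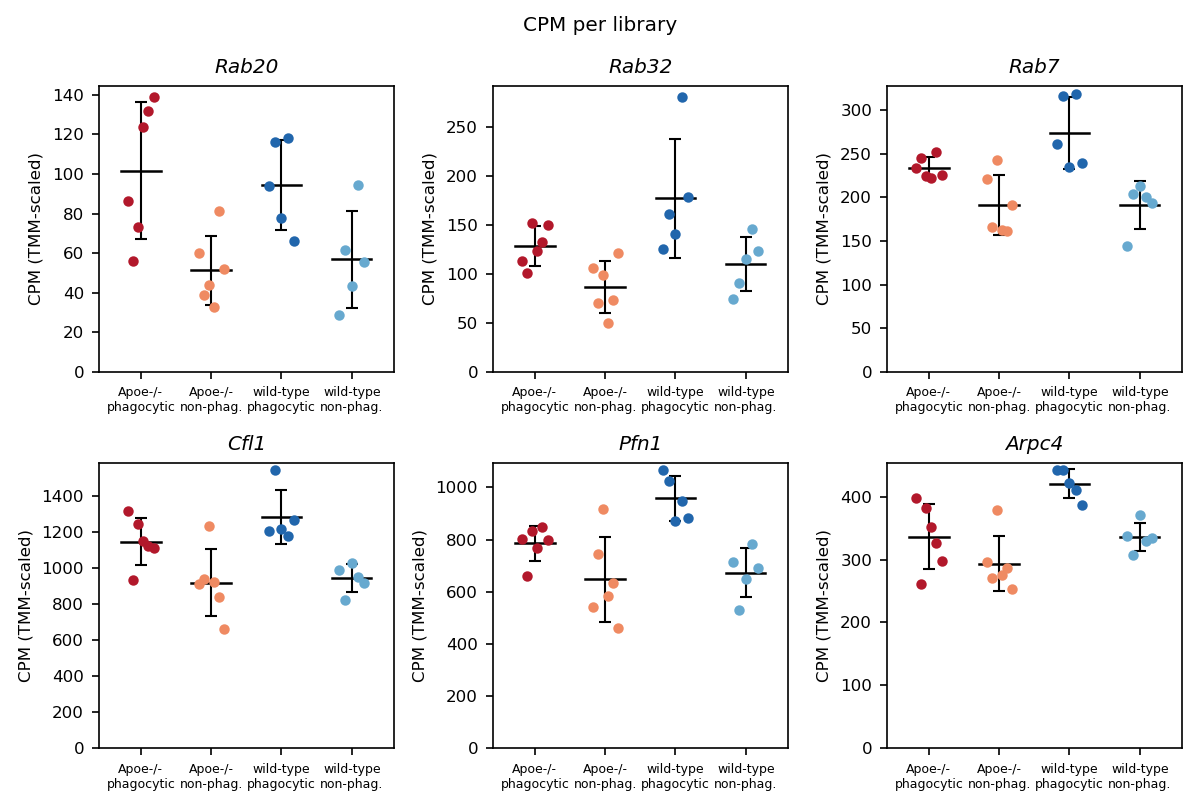
CPM in every library (y axis) for Rab20, Rab32, Rab7, Cfl1, Pfn1 and Arpc4 in the 4 groups (x axis), with points for libraries and bars for mean ± SD. The wild-type sorts do not overlap for Rab7, Cfl1, Pfn1 and Arpc4, and the Apoe -/- sorts overlap in all 6 panels.

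In LC3-associated phagocytosis, Rubcn and Becn1 form a lipid kinase complex with Pik3c3, and Atg5, Atg7 and Atg16l1 attach LC3 proteins such as Map1lc3a and Map1lc3b to the membrane. None of the 8 genes was called in any comparison by edgeR or DESeq2, and 1 reached an unadjusted p below 0.05 for the averaged sort effect. That was Atg7, with 15 to 43.2 CPM and a median of 26.3 in Apoe -/- phagocytic libraries, against 5.03 to 25.6 CPM and a median of 16.1 in Apoe -/- non-phagocytic libraries. In wild-type phagocytic libraries Atg7 was at 47.4, 59.4, 27.9, 22.3 and 31.2 CPM, against 16.2, 18.7, 20.5, 43.4 and 30.8 CPM in wild-type non-phagocytic libraries. The sorts overlapped in both genotypes, and the wild-type non-phagocytic high value was again pool 4. Its averaged log2 fold change was 0.68 ± 0.25 (edgeR adjusted p = 0.173). Averaged values of Pik3c3, Becn1, Rubcn, Atg5 and Atg16l1 lay between -0.12 and 0.35, and Map1lc3a, with the fewest reads, was at 0.61 ± 0.43.

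Map1lc3b depended on which transcripts were summed. Over all 5 transcripts it lay between 184 and 255 CPM with a median of 215 in Apoe -/- phagocytic libraries, against 174 to 423 CPM with a median of 246 in Apoe -/- non-phagocytic libraries. In wild-type phagocytic libraries it was at 243, 269, 234, 321 and 217 CPM, against 300, 234, 254, 244 and 256 CPM in wild-type non-phagocytic libraries. The sorts overlapped widely, and the averaged log2 fold change was -0.14 ± 0.14 (edgeR adjusted p = 0.734). Of these reads, however, 77.1% were assigned to 1 transcript of 4138 bases annotated as a retained intron. Its 4 coding transcripts held 32.7 to 131 CPM with a median of 43.8 in Apoe -/- phagocytic libraries, against 18.1 to 42.5 CPM with a median of 26.6 in Apoe -/- non-phagocytic libraries. In wild-type phagocytic libraries the coding transcripts held 73.9, 65.8, 44.2, 146 and 77.4 CPM, against 11.6, 31.7, 26.6, 89.9 and 65.5 CPM in wild-type non-phagocytic libraries. The coding reads were on the high side in phagocytic cells, with overlap in both genotypes. A fit on coding transcripts only, chosen after seeing the data, gave an averaged log2 fold change of 0.92 ± 0.30, which edgeR did not call (adjusted p = 0.135).

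**Figure D3:**
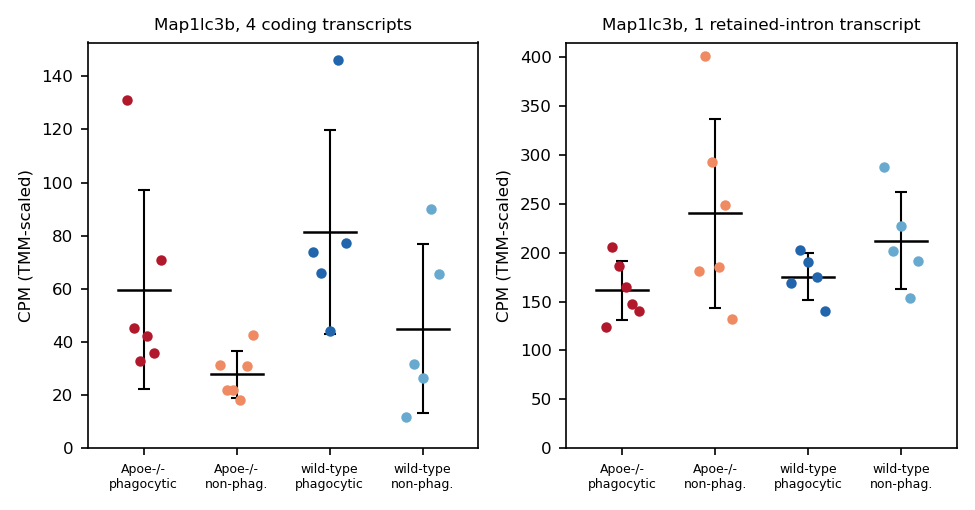
CPM of Map1lc3b in every library (y axis) from its 4 coding transcripts (left) and its retained-intron transcript (right), in the 4 groups (x axis), with bars for mean ± SD. Coding reads average 59.7 CPM in Apoe -/- phagocytic libraries and 27.9 in non-phagocytic libraries of that genotype, and 81.4 in wild-type phagocytic and 45 in wild-type non-phagocytic libraries. The retained-intron transcript averages 162 CPM in Apoe -/- phagocytic libraries and 240 in non-phagocytic libraries of that genotype, and 175 in wild-type phagocytic and 212 in wild-type non-phagocytic libraries.

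A further pair of LC3 genes had most of their reads on noncoding transcripts. In Becn1 13.4% of the reads were on coding transcripts and 62.8% on transcripts annotated for nonsense-mediated decay, and in Map1lc3a 30.2% were on coding transcripts. With coding transcripts only, the sign of the averaged effect turned in 6 of 41 members (Dock2, Abi1, Becn1, Rubcn, Map1lc3b and Atg16l1), 4 of them LC3 genes. Rab20, with 1 coding transcript, has no such split, and in Rab32 97% of the reads were coding. With coding transcripts only, edgeR still called Rab20 (0.79 ± 0.21, adjusted p = 0.043) but not Rab32 (0.61 ± 0.18, adjusted p = 0.0872), in a fit that called 1.84% of its genes.

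On the actin side, the Rac-activating genes showed no shared direction. Their averaged log2 fold changes ran from -0.51 for Dock1 to 0.37 for the adaptor Crk, with 3 of 6 above 0 and none called. Dock1, an exchange factor for Rac that partners Elmo1, lay between 10.6 and 35.1 CPM with a median of 29.6 in Apoe -/- phagocytic libraries, against 18.2 to 48.2 CPM with a median of 28.6 in Apoe -/- non-phagocytic libraries. Wild-type phagocytic libraries held it at 27.7, 17.7, 38.2, 24 and 7.11 CPM, against 39.5, 49.4, 46.2, 33.6 and 26 CPM in wild-type non-phagocytic libraries. Most wild-type phagocytic values lay below the non-phagocytic ones, with some overlap, and the averaged effect of -0.51 ± 0.24 was not called (edgeR adjusted p = 0.328). Vav1, the exchange factor of blood cells and the most abundant member of this list at 113 TPM, lay between 217 and 396 CPM with a median of 336 in Apoe -/- phagocytic libraries, against 185 to 351 CPM with a median of 298 in Apoe -/- non-phagocytic libraries. Its wild-type values were 285, 360, 367, 286 and 393 CPM in phagocytic libraries, against 199, 326, 313, 273 and 257 CPM in non-phagocytic libraries. The groups overlapped, at an averaged 0.25 ± 0.13. Elmo1, Dock2 and Crkl had averaged values of -0.22, -0.07 and 0.10.

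Rhoa, which drives contraction, lay between 380 and 457 CPM with a median of 442 in Apoe -/- phagocytic libraries, against 282 to 407 CPM with a median of 338 in Apoe -/- non-phagocytic libraries. Its wild-type phagocytic values were 488, 495, 338, 436 and 400 CPM, against 465, 324, 395, 400 and 302 CPM in wild-type non-phagocytic libraries. The averaged effect was 0.26 ± 0.11 (edgeR adjusted p = 0.25), and the sorts overlapped in both genotypes. Cdc42, which acts through WASP and had a mean of 300 TPM, lay between 573 and 792 CPM with a median of 637 in Apoe -/- phagocytic libraries, against 443 to 733 CPM with a median of 572 in Apoe -/- non-phagocytic libraries. Its wild-type values were 624, 896, 793, 621 and 712 CPM in phagocytic libraries, against 593, 611, 697, 610 and 583 CPM in non-phagocytic libraries. These overlapped as well, at 0.20 ± 0.12. Rac1 and Rhog averaged 0.25 ± 0.16 and 0.23 ± 0.12, and none of these genes was called.

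Among the WASP and WAVE genes, whose products turn on Arp2/3, Nckap1l had the largest value. This blood-cell subunit of the WAVE complex lay between 342 and 431 CPM with a median of 381 in Apoe -/- phagocytic libraries, against 234 to 342 CPM with a median of 278 in Apoe -/- non-phagocytic libraries. The wild-type phagocytic libraries had 300, 281, 391, 325 and 427 CPM, against 161, 343, 339, 269 and 294 CPM in wild-type non-phagocytic libraries. The Apoe -/- sorts touched at their edges and the wild-type sorts overlapped. The averaged log2 fold change was 0.38 ± 0.13 (edgeR adjusted p = 0.14). Cyfip1, another WAVE subunit and the most abundant of the list at 143 TPM, lay between 325 and 477 CPM with a median of 338 in Apoe -/- phagocytic libraries, against 247 to 518 CPM with a median of 386 in Apoe -/- non-phagocytic libraries. Its wild-type values were 485, 420, 421, 286 and 395 CPM in phagocytic libraries, against 310, 406, 503, 263 and 304 CPM in non-phagocytic libraries. They overlapped, and the averaged effect of 0.06 ± 0.15 turned sign under some alternatives. Was, Wasf2 and Abi1 averaged 0.29, -0.05 and 0.02.

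All 7 Arp2/3 subunits had positive fold changes in both genotypes, with a median of 0.20 in Apoe -/- and 0.26 in wild-type cells, but none was called. Arpc4 lay between 261 and 398 CPM with a median of 339 in Apoe -/- phagocytic libraries, against 253 to 378 CPM with a median of 281 in Apoe -/- non-phagocytic libraries. In wild-type phagocytic libraries it was at 442, 443, 422, 411 and 386 CPM, against 338, 308, 371, 330 and 334 CPM in wild-type non-phagocytic libraries. The wild-type sorts did not overlap, and the averaged effect was 0.26 ± 0.11 (edgeR adjusted p = 0.23). Arpc3 lay between 67.8 and 105 CPM with a median of 89.1 in Apoe -/- phagocytic libraries, against 35 to 96.3 CPM with a median of 48.6 in Apoe -/- non-phagocytic libraries. Wild-type phagocytic libraries held it at 90.1, 90.4, 66.6, 88.1 and 86.7 CPM, against 92.3, 71.3, 49, 86.8 and 66.7 CPM in wild-type non-phagocytic libraries. The sorts overlapped in both genotypes, in Apoe -/- cells only through non-phagocytic pool 3. The averaged effect was 0.43 ± 0.16 (edgeR adjusted p = 0.165). Without Apoe -/- non-phagocytic library 3 it was 0.55 (adjusted p = 0.0298, edgeR), with 0.88 in Apoe -/- cells alone (adjusted p = 0.0399, edgeR). In the other 21 fits that left out 1 library the averaged effect was not called. Arpc1b, the most abundant subunit, lay between 581 and 1052 CPM with a median of 854 in Apoe -/- phagocytic libraries, against 408 to 963 CPM with a median of 657 in Apoe -/- non-phagocytic libraries. Its wild-type values were 813, 1187, 1038, 1016 and 1006 CPM in phagocytic libraries, against 682, 740, 781, 1034 and 990 CPM in non-phagocytic libraries, with overlap and an averaged 0.29 ± 0.15.

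Of the genes of actin turnover, Cfl1, which severs filaments, and Pfn1, which feeds actin monomers to their growing ends, had the lowest adjusted p on the actin side. Cfl1 lay between 936 and 1316 CPM with a median of 1138 in Apoe -/- phagocytic libraries, against 664 to 1235 CPM with a median of 918 in Apoe -/- non-phagocytic libraries. Its wild-type phagocytic values were 1206, 1542, 1216, 1178 and 1267 CPM, against 992, 825, 1031, 953 and 918 CPM in wild-type non-phagocytic libraries. Here too the wild-type sorts were separate and the Apoe -/- sorts were not, with an averaged effect of 0.38 ± 0.12 (edgeR adjusted p = 0.0799). Pfn1 lay between 662 and 850 CPM with a median of 801 in Apoe -/- phagocytic libraries, against 460 to 918 CPM with a median of 610 in Apoe -/- non-phagocytic libraries. The wild-type phagocytic libraries had 1065, 1026, 871, 949 and 881 CPM, against 715, 530, 649, 782 and 690 CPM in wild-type non-phagocytic libraries. The averaged effect was 0.39 ± 0.12 (edgeR adjusted p = 0.0857). Both passed in edgeR without Apoe -/- non-phagocytic library 3 (adjusted p = 0.0354 for Cfl1 and 0.0302 for Pfn1), which held the highest value of its group for each. Neither gene passed in the other 21 fits that left out 1 library. The myosins parted, with Myo1f at 0.31 ± 0.21 and Myo1g at -0.37 ± 0.19, and Coro1a was at 0.00 ± 0.15.

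Members whose sorts did not overlap in CPM were thus 4 in wild-type cells (Arpc4, Cfl1, Pfn1 and Rab7, all higher in phagocytic libraries), where 1.51% of all genes tested did the same. In Apoe -/- cells there was none, against 0.524% of all genes. The difference between genotypes in the effect of the sort was called by edgeR for 0 of 41 members, and for 0% of the 12415 genes tested. No member had an unadjusted p below 0.05 for it, while 2.42% of all genes did, and DESeq2 called no member either, with 0.0161% of its genes called. Its estimates ran from -0.55 ± 0.46 for Rubcn to 0.52 ± 0.48 for Dock1 (SE), so a difference of that size lies close to its own error.

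Set side by side, the actin and Rac arm had 21 of 27 positive fold changes for the averaged sort effect and a median of 0.23, and the Rab and LC3 arm 12 of 14 and a median of 0.36. Both called genes are in the Rab and LC3 arm. By genotype the medians were 0.20 for actin and Rac and 0.27 for Rab and LC3 in Apoe -/- cells, and 0.23 for actin and Rac and 0.34 for Rab and LC3 in wild-type cells. As the mean log2 CPM of its genes in a library, the actin and Rac arm lay between 7.51 and 7.90 in Apoe -/- phagocytic and between 7.28 and 7.68 in Apoe -/- non-phagocytic libraries. In wild-type libraries it lay between 7.78 and 7.88 in phagocytic and between 7.64 and 7.77 in non-phagocytic cells, which did not overlap. The Rab and LC3 arm lay between 5.62 and 6.08 in Apoe -/- phagocytic and between 5.12 and 5.75 in Apoe -/- non-phagocytic libraries. In wild-type libraries it lay between 5.79 and 6.18 in phagocytic and between 5.32 and 5.81 in non-phagocytic cells, which overlapped. The 2 lowest values of each arm were Apoe -/- non-phagocytic pools 2 and 5, those richest in satellite-like reads. The difference of the arms within a library was 1.90 ± 0.10 in Apoe -/- phagocytic libraries and 2.06 ± 0.11 in non-phagocytic libraries of that genotype, and 1.86 ± 0.15 in wild-type phagocytic and 2.08 ± 0.18 in wild-type non-phagocytic libraries (SD). It was lower on average in phagocytic cells of both genotypes, with ranges that overlapped, and it was not tested because the arms were chosen with results known.

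**Figure D4:**
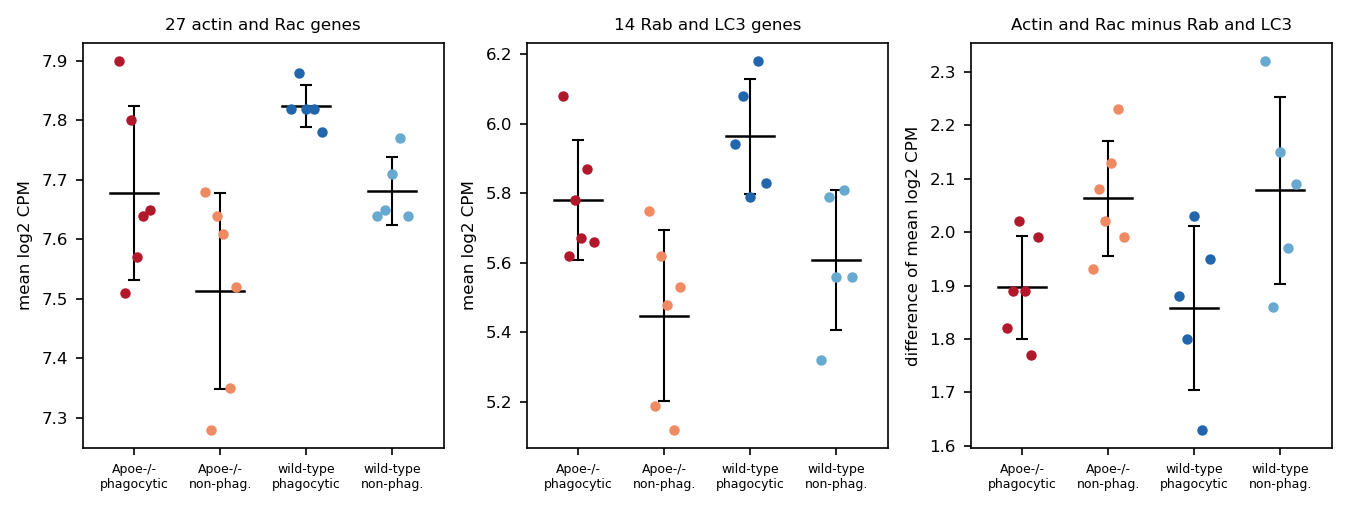
Mean log2 CPM of the 27 actin and Rac genes (left) and the 14 Rab and LC3 genes (middle) in every library, and their difference (right), in the 4 groups (x axis), with bars for mean ± SD. The y axes do not start at 0, and the wild-type sorts are separate for the actin and Rac genes at 7.78 to 7.88 in phagocytic and 7.64 to 7.77 in non-phagocytic libraries.

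Between genotypes within a sort, no member was called by edgeR or DESeq2. In phagocytic cells 4 genes of all kinds were called by edgeR (0.0322%) and 0.153% by DESeq2. In non-phagocytic cells edgeR and DESeq2 each called 2 (0.0161%). At an unadjusted p below 0.05 there were 4 members in phagocytic cells, all with lower values in Apoe -/- cells, while 6.62% of all genes passed. In non-phagocytic cells there was 1, Atg16l1, against 3.8% of all genes. The median log2 fold change of the 41 members, Apoe -/- over wild-type, was -0.15 in phagocytic and -0.14 in non-phagocytic cells, with medians of 0.00 over all genes in both. The 10 microglia markers had a median of -0.29 in phagocytic cells, with 9 below 0, and -0.02 in non-phagocytic cells, with 6 below 0. In phagocytic and non-phagocytic cells, the medians were 0.18 and -0.81 for dendritic cell markers and 0.03 and 0.89 for neuron markers. For Mueller glia markers they were -0.15 and 0.69. Monocyte, border macrophage and rod markers differed more than the members in both sorts. None of these lists had a call in edgeR or DESeq2. The 7 monocyte markers had a median of -1.77 in phagocytic and -1.13 in non-phagocytic cells, with 6 of 7 below 0 in each and 3 and 2 of them at an unadjusted p below 0.05, and summed to 151 to 413 CPM in Apoe -/- and 219 to 992 CPM in wild-type phagocytic libraries. In non-phagocytic cells they summed to 108 to 255 CPM in Apoe -/- and 77.3 to 1180 CPM in wild-type libraries. Border macrophage markers had medians of -0.85 in phagocytic and -0.69 in non-phagocytic cells, with 2 and 1 of the 7 tested at an unadjusted p below 0.05. A set of 4 rod markers (Gnat1, Sag, Pde6b and Nrl) had all 4 values above 0 in both sorts, with medians of 0.56 in phagocytic and 0.51 in non-phagocytic cells and 0 at an unadjusted p below 0.05, and summed to 782 to 3088 CPM in Apoe -/- and 516 to 1854 CPM in wild-type phagocytic libraries. In non-phagocytic cells these summed to 1009 to 2254 CPM in Apoe -/- and 603 to 2490 CPM in wild-type libraries. The part of these markers in the genotype values of the members was not tested.

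The member with the largest genotype difference in phagocytic cells was Rac1, the GTPase that drives the phagocytic cup, which was chosen for description after its values were seen. It lay between 70.1 and 149 CPM with a median of 123 in Apoe -/- phagocytic libraries, against 145, 201, 228, 258 and 155 CPM in wild-type phagocytic libraries. In non-phagocytic cells it lay between 75.8 and 172 CPM with a median of 109 in Apoe -/- libraries, against 193, 98.4, 159, 137 and 124 CPM in wild-type libraries. The phagocytic libraries overlapped only at 145 to 149 CPM, those of non-phagocytic cells broadly. The log2 fold change was -0.77 ± 0.23 in phagocytic cells (edgeR adjusted p = 0.426) and -0.33 ± 0.23 in non-phagocytic cells (edgeR adjusted p = 0.999), and neither was called. The other 3 members below the unadjusted threshold were Arp2/3 subunits, namely Arpc5 at -0.43 ± 0.18, Arpc2 at -0.35 ± 0.17 and Arpc4 at -0.32 ± 0.15. Pfn1 was the 1 member whose phagocytic libraries did not overlap between genotypes, with 662 to 850 CPM in Apoe -/- and 871 to 1065 CPM in wild-type cells, while 0.483% of all genes were lower without overlap. Its log2 fold change of -0.29 ± 0.17 was not called by edgeR (adjusted p = 0.798). Rab20, at 0.10 ± 0.28 in phagocytic and -0.15 ± 0.28 in non-phagocytic cells, and Rab32, at -0.46 ± 0.23 and -0.35 ± 0.23, were not called between genotypes either.

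**Figure D5:**
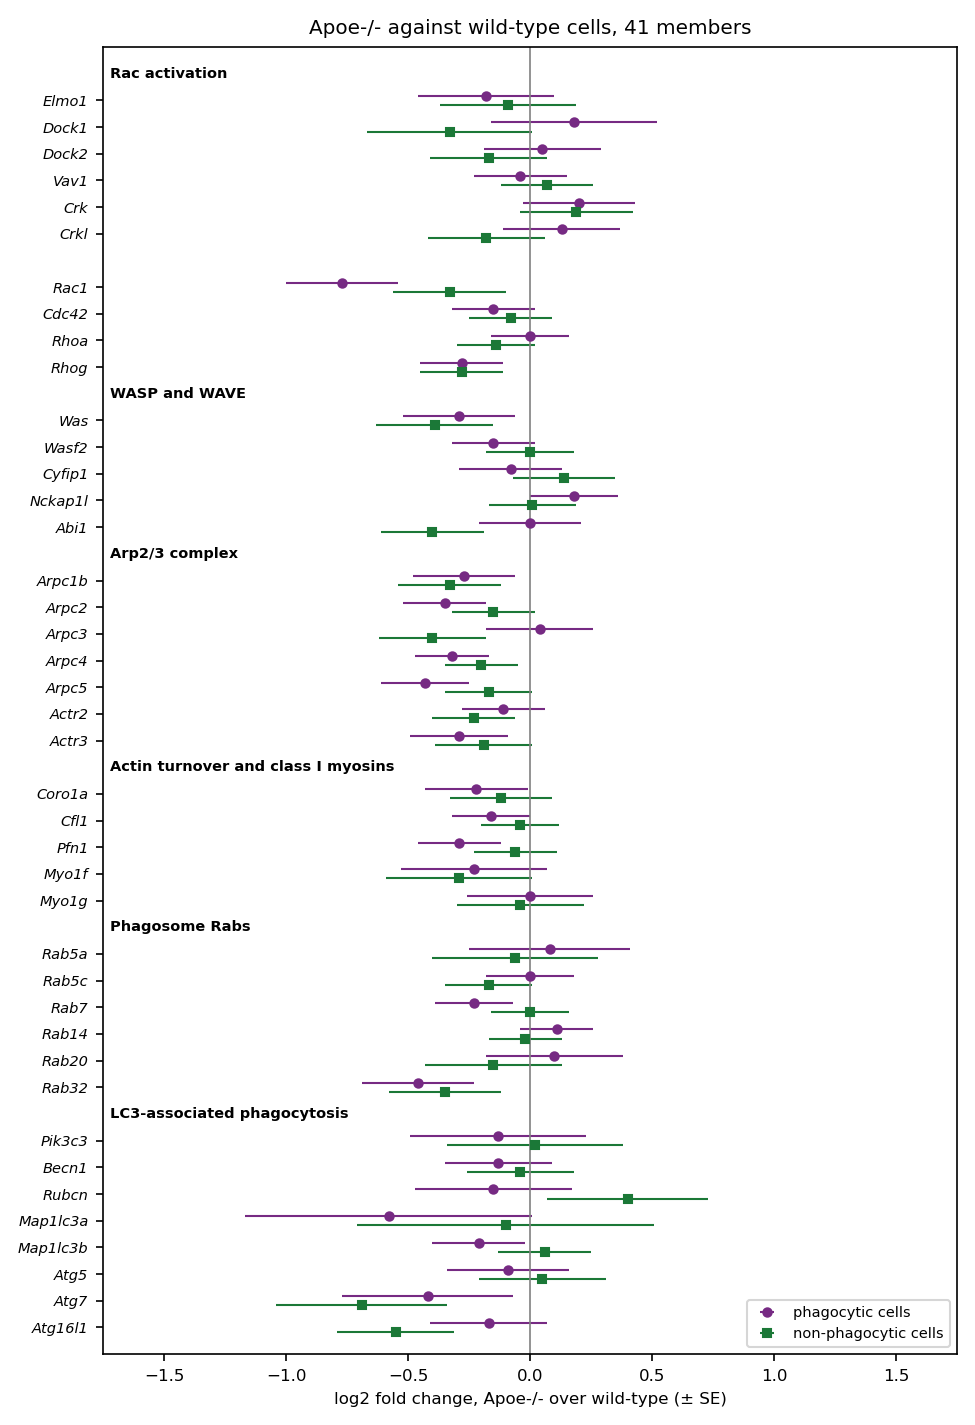
Log2 fold change of each of the 41 members, Apoe -/- over wild-type cells (x axis, point ± SE), by role (y axis), in phagocytic cells (circles) and non-phagocytic cells (squares). Most points lie left of 0, with Rac1 at -0.77 in phagocytic cells, and none was called.

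The wider pathway was read from 2 further lists. Of 75 other actin and Rac genes 71 were tested, and edgeR called 3 as higher for the averaged sort effect and none as lower, with a median of 0.09, against 1.8% of all genes called as higher, 2.36% in either direction and a median of -0.02. DESeq2 called 7 of them, against 4.13% of all genes. The 3 that edgeR called were Rac2, the Rac of blood cells (0.47 ± 0.13, adjusted p = 0.0462, edgeR), the filament disassembly factor Wdr1 (0.51 ± 0.11, adjusted p = 0.00968, edgeR) and the capping protein Capg (0.70 ± 0.16, adjusted p = 0.0198, edgeR). Rac2 had 394 ± 74.7 CPM in Apoe -/- phagocytic libraries and 277 ± 41.2 in non-phagocytic libraries of that genotype, and 398 ± 72 in wild-type phagocytic and 294 ± 54.3 in wild-type non-phagocytic libraries (SD). Of 81 other Rab, phagosome and LC3 genes 78 were tested, with 4 called as higher by edgeR, none as lower, and a median of 0.16, beside the same 1.8% and 2.36% of all genes, and DESeq2 called 8. The 4 that edgeR called were Gabarap, an LC3 relative (0.73 ± 0.15, edgeR adjusted p = 0.00761), the autophagy receptor Sqstm1 (0.85 ± 0.14, edgeR adjusted p = 0.000876), and Cybb and Cyba, the membrane subunits of the phagocyte oxidase that acts upstream of LC3 in LC3-associated phagocytosis. Cyba had 530 ± 56.8 CPM in Apoe -/- phagocytic libraries and 392 ± 92.8 in non-phagocytic libraries of that genotype, and 667 ± 115 in wild-type phagocytic and 389 ± 24.3 in wild-type non-phagocytic libraries (SD), at 0.61 ± 0.12 (edgeR adjusted p = 0.00564). Cybb had 461 ± 180 CPM in Apoe -/- phagocytic libraries and 164 ± 82.3 in non-phagocytic libraries of that genotype, and 477 ± 191 in wild-type phagocytic and 164 ± 76.1 in wild-type non-phagocytic libraries (SD). At 1.52 ± 0.26 (edgeR adjusted p = 0.000876) it had the largest averaged value of the genes tested in these lists. In Apoe -/- cells alone it was called as well (1.49 ± 0.34, edgeR adjusted p = 0.0463). The wild-type value was of similar size but not called (1.54 ± 0.38, edgeR adjusted p = 0.0857).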

How the data were processed

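Microglia sorted from mouse retina were measured by bulk RNA-seq in 22 libraries. The authors quantified reads with Salmon 1.4.0 against mm10, per the submitters' processing notes, and deposited estimated counts and TPM per transcript for each library. The sources do not name the strand setting or annotation release. A deposited gene table gives FPKM made by the authors, and its header says that genes with FPKM above 5 were kept. Here estimated counts were summed per gene through GENCODE identifiers (116072 of 116248 transcripts matched; the others held 0.118% to 0.262% of the reads in a library) and rounded. edgeR 4.0.16 in R 4.3.3 was used with TMM scaling, its default filter on low counts (12415 genes kept) and a quasi-likelihood fit over all 4 groups; p-values were Benjamini-Hochberg adjusted over all genes tested. The common biological coefficient of variation was 0.426. Genotype and sort, as labelled, gave 6 comparisons, namely the sort in each genotype, the genotype in each sort, the difference of the sort effects and their average. Alternatives included DESeq2 1.42.0 and limma 3.58.1 on log2(FPKM + 1). Counting coding transcripts only was chosen after seeing the data. The procedure was tested on simulated counts that had no pool effects and set changes larger than most of those fitted for the members. That test does not cover changes as small as theirs.

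The members and lists were chosen with earlier results of these data known. Values per library are given for members called in a comparison, members whose sorts did not overlap in a genotype, and, in each of the 7 role lists, the member with the largest averaged sort effect and the one with the highest mean TPM.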

Additional observations from a re-analysis of the deposited data

Results flagged for a closer look

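Of 64 sets of libraries examined (16 named members in 4 groups), 5 had 1 library far from the others by Dixon's test, a rule that chance meets in about 1 of 20 groups. Arpc4 was at 378 CPM in Apoe -/- non-phagocytic library 3, where the other 5 lay between 253 and 296 CPM. Cfl1 was at 1542 CPM in wild-type phagocytic library 2, where the other 4 lay between 1178 and 1267 CPM. Arpc3 was at 66.6 CPM in wild-type phagocytic library 3, where the other 4 lay between 86.7 and 90.4 CPM. Cdc42 was at 697 CPM in wild-type non-phagocytic library 3, where the other 4 lay between 583 and 611 CPM. Rab7 was at 144 CPM in wild-type non-phagocytic library 1, where the other 4 lay between 194 and 213 CPM.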

How the results depend on the processing

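For the sort effect averaged over genotypes, the count of members called was 5 with DESeq2, 1 with length-scaled counts, 0 with limma on FPKM, 1 without Apoe -/- non-phagocytic pools 2 and 5, 1 without wild-type pool 4 and 1 with coding transcripts only, against 2 in edgeR. Leaving out 1 library at a time gave 1 to 6, with 6 without Apoe -/- non-phagocytic library 3. In Apoe -/- cells the count was 1 with DESeq2 and 0 to 1 leaving out 1 library at a time, against 0 in edgeR. Rab20 lost its averaged call in 1 of 10 alternatives (limma on FPKM, adjusted p = 0.0762) and in none of the 22 fits that left out 1 library, where its log2 fold change lay between 0.77 and 0.98. Rab32 lost it in 5 of 10. The median of the actin and Rac genes in wild-type cells moved to 0.15 with limma on FPKM and 0.18 with coding transcripts only, against 0.23. In non-phagocytic cells between genotypes it was -0.35 with limma on FPKM and -0.04 without Apoe -/- non-phagocytic pools 2 and 5, against -0.17, and that of the Rab and LC3 genes was -0.32 with limma on FPKM, against -0.05. On that FPKM scale the median of all genes in this comparison was -0.13. The median difference between genotypes of the sort effect in actin and Rac genes was -0.14 without those pools, against 0.00. The averaged value of Cyfip1 turned to -0.05 with length-scaled counts, -0.05 with limma on FPKM and -0.03 without those pools, and lay between 0.00 and 0.12 leaving out 1 library at a time. That of Map1lc3b turned to 0.37 with length-scaled counts, 0.34 with limma on FPKM and 0.92 with coding transcripts only. The causes were not tested, except that the last follows from leaving out the retained-intron transcript.

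The labels do not say that same-numbered libraries of the sorts came from the same pool. Their deviations from the group means did not all correlate above 0.1, so the numbers were not used as pairs. The r lay between 0.06 and 0.21 over 6 Apoe -/- pairs, with 5 closest to their own number. Over 5 wild-type pairs it lay between 0.04 and 0.42, with 2 closest. In libraries 1 to 5, wild-type microglia markers summed to 11904, 18523, 17475, 5117 and 9373 CPM in phagocytic cells. In non-phagocytic cells they summed to 10090, 20598, 19122, 5425 and 9677 CPM, the same order of size. The order differed between the sorts in Apoe -/- libraries. The correlation rule cannot show that pools were not shared, so a fit with a block is given beside the unpaired one. With pool number as a replicate block, edgeR called 6 members for the averaged effect (Nckap1l, Cfl1, Pfn1, Rab7, Rab20 and Rab32) and 1 in Apoe -/- cells (Rab20). Of all genes, the fit with the block called 644 for the averaged effect, where the unpaired fit called 293. In Apoe -/- cells it called 255, where the unpaired fit called 58.

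Counts over all genes moved by more than 1.5 times in some fits. In wild-type cells 26 genes in edgeR became 103 with DESeq2, 122 with no filter and 135 with the block. In Apoe -/- cells 58 became 168 with DESeq2, 137 with no filter, 255 with the block, 26 with limma on FPKM, 16 without pools 2 and 5 and 38 with coding transcripts only. For the averaged effect 293 became 513 with DESeq2, 644 with the block and 82 with limma on FPKM. Between genotypes, 4 in phagocytic cells became 19 with DESeq2, 96 with no filter, 7 with the block, 2 with only the groups compared and 1 with coding transcripts only. In non-phagocytic cells 2 became 16 with no filter and 1 with coding transcripts only, and for the difference 0 became 2 with DESeq2 and 17 with no filter. Leaving out 1 library at a time gave 18 to 89 in Apoe -/- cells, 13 to 64 in wild-type cells, 3 to 23 between genotypes in phagocytic cells and 191 to 355 for the averaged effect. Depth limits the members with few reads most, and Map1lc3a had the largest standard error of the averaged effect, at 0.43.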
